A study of Homo sapiens with 3 samples.

Results

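The regions described here are H3K27ac peaks that were called inside genes in A2780 cells given the BPP peptide and had no counterpart in the control cells. They were chosen by the deposited peak calls alone, as peaks of the BPP list on chromosomes 1 to 22 and X with no peak of the control list (CTR) within 1 kb. Each overlapped the span of a protein-coding gene (GRCh38, RefSeq) and no window of 1 kb on either side of any protein-coding gene's start or end. There were 4741 of them among 17841 BPP peaks (26.6%, 95% Wilson interval 25.9 to 27.2) and among 40378 peaks in all 3 lists. They are called BPP-only peaks below. Presence in the BPP list and absence from the CTR list chose them, so neither is a finding.

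The 3 libraries were CUT&Tag libraries of A2780, a human ovarian carcinoma cell line, with 1 library per group. In CUT&Tag an antibody directs a transposase to chromatin, which cuts and tags the DNA beside the mark. The BPP group was A2780 cells treated with the BPP peptide and profiled with an antibody to H3K27ac. The series design describes the peptide as a competitor for the site at which BIN2 is phosphorylated. The CTR group was A2780 control cells profiled with the same antibody. The labels do not say what the CTR cells received, and a TAT peptide is named as the comparator for RNA-seq only. The IgG group was A2780 cells profiled with a non-specific antibody, which measures background; its treatment was not given either. Read numbers were not given, so a longer list was not read as more of the mark, and a region without a call can still carry sub-threshold signal. Since each group was a single library, differences could not be checked against replicates and carry no p-value. Intervals are 95% and cover counting error only.

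H3K27ac is acetylation of lysine 27 on histone H3. It is placed by the acetyltransferases p300 and CBP, removed by histone deacetylases, and read by bromodomain proteins. It marks active promoters and active enhancers, and many enhancers lie inside genes, often in introns, where they may serve the gene around them or another one. Peaks inside a gene can also mark alternative promoters and the promoters of noncoding RNAs embedded in it.

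Some BPP-only peaks overlapped windows around such internal starts, and the sequences of 6 of these windows are shown. An overlap of 1 bp was enough, so a peak need not reach the start itself. Each window runs from 250 bases before to 50 bases after a RefSeq start (GRCh38.p14), read 5′ to 3′ on the strand of the gene. On the chromosomes that the start table covered, 61 of 4589 BPP-only peaks overlapped such a window (1.33%, 1.04 to 1.70). The windows shown are of RAD52, FBXL5, ZNF320, PPP2R5B and the antisense RNA FRMD6-AS1, which are among the overlapping peaks of highest −log10 q, and of HDAC9, which was chosen after its values were seen. Capitals mark 4 motifs searched on both strands: the GC box GGGCGG, the CCAAT box CCAAT, the ETS core CCGGAA and the AP-1 site TGANTCA. Motif matches that overlap run together in the capitals.
RAD52 (chr12:949645-949944, - strand): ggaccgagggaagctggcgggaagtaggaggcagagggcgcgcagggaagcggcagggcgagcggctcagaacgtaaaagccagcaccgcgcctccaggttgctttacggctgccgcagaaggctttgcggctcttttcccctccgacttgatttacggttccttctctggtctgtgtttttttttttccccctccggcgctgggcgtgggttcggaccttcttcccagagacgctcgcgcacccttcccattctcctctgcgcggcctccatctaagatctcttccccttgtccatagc
FBXL5 (chr4:15655308-15655607, - strand): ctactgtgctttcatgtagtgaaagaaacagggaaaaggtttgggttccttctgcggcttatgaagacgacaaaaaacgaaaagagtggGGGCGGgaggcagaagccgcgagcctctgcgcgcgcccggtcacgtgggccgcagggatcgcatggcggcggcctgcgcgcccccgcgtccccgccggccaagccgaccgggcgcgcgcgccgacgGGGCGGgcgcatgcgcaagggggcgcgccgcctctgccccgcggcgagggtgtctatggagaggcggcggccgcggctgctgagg
ZNF320 (chr19:52897645-52897944, - strand): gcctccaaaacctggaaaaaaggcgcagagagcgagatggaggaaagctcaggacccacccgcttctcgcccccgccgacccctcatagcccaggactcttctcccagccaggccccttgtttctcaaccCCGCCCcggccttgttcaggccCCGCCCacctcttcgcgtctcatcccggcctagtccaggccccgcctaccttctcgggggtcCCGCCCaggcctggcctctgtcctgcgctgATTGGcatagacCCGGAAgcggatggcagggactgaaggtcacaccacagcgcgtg
PPP2R5B (chr11:64924439-64924738, + strand): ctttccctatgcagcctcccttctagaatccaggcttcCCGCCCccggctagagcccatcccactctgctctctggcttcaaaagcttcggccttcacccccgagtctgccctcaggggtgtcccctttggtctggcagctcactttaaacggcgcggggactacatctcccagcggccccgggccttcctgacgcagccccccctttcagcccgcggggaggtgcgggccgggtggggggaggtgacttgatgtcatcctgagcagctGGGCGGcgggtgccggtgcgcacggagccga
FRMD6-AS1 (chr14:51651695-51651994, - strand): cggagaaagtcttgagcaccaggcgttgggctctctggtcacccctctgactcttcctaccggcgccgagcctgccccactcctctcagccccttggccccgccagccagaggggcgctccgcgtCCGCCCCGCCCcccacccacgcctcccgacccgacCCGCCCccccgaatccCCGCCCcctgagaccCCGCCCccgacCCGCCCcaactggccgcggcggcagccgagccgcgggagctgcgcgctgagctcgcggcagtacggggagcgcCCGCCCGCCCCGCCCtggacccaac
HDAC9 (chr7:18495499-18495798, + strand): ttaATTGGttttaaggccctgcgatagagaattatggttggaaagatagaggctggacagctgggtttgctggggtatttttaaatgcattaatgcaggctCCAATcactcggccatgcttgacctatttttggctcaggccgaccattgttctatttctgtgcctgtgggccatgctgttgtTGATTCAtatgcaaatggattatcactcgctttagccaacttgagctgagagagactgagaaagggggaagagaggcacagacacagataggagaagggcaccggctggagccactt

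RAD52 is a recombination mediator of DNA double-strand break repair. The BPP-only peak (chr12:949160-950116, fold 6.03, −log10 q 18.1) covered all 300 bases of its window, 41.5 kb into the 79.4 kb gene as the gene table draws it, and the window held none of the 4 motifs. The peak at FBXL5, an iron-sensing subunit of a ubiquitin ligase, overlapped 92 bases of a window with 2 GC boxes (chr4:15655516-15655895, fold 6.18, −log10 q 15.3) and also lay inside FAM200B. At ZNF320, a zinc finger gene, the peak overlapped 84 bases of a window with 3 GC boxes, 1 CCAAT box and 1 ETS core (chr19:52897115-52897728, fold 7.10, −log10 q 12.6). These 3 peaks lay 40.5, 25.4 and 25.1 kb from the nearest CTR peak.

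The peak at PPP2R5B, a regulatory subunit of protein phosphatase 2A, overlapped 213 bases of its window (chr11:64924219-64924651, fold 4.39, −log10 q 11.2). The FRMD6 peak reached only 13 bases into the window of FRMD6-AS1, which held 9 GC boxes and was 77.0% G and C. At HDAC9, a class IIa histone deacetylase, the peak overlapped 27 bases of a window that lies inside the 915.6 kb gene and held 2 CCAAT boxes and 1 AP-1 site (chr7:18495772-18496515, fold 5.71, −log10 q 9.62). A motif match is a run of letters and was not tested as a binding site.

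Across the 63 windows under BPP-only peaks, 28 belonged to the gene that held the peak and 35 to long noncoding RNAs. A start window lay under 1.33% of BPP-only peaks, against 3.13% (2.49 to 3.93) of the 2268 CTR-only peaks inside genes on the same chromosomes. The difference was -1.80 percentage points (-2.65 to -1.06). Among peaks inside genes that both lists shared, taken from the BPP list, the share was 5.40% (4.67 to 6.25), and among IgG peaks inside genes it was 0.388% (0.222 to 0.677). BPP-only peaks thus overlapped start windows less often than either other H3K27ac set and more often than background peaks. The GC box was in 42.9% of windows under BPP-only peaks, against 71.1% of the 76 windows under CTR-only peaks, a difference of -28.2 points (-42.8 to -11.7). It was in 55.1% of the 185 windows under shared peaks and in 44.7% of all 27195 windows. The CCAAT box was in 22.2%, 27.6%, 38.9% and 35.7% of the same 4 sets of windows, the ETS core in 15.9%, 27.6%, 25.9% and 17.6%, and the AP-1 site in 11.1%, 6.58%, 9.19% and 7.73%. These sets mix starts of protein-coding genes and long noncoding RNAs in unlike proportions. Protein-coding starts were 28 of 63 windows under BPP-only, 49 of 76 under CTR-only and 104 of 185 under shared peaks. The part of this mix in the motif shares was not tested. None of the 61 peaks had an IgG peak within 1 kb.

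Hairpins of microRNAs overlapped, by 1 bp or more, 6 BPP-only peaks (0.127%, 0.0580 to 0.276), 6 CTR-only peaks (0.255%, 0.117 to 0.556) and 7 shared peaks (0.215%, 0.104 to 0.443), with intervals that overlap. Well-known ones that overlapped BPP-only peaks were MIR152 inside COPZ2, a coatomer subunit gene, and MIR26B inside CTDSP1, a phosphatase gene. Their mature sequences (RefSeq, GRCh38.p14) are given with the seed, bases 2 to 8, in capitals.
hsa-miR-152-3p (chr17:48037174-48037194, - strand): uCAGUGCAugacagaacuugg
hsa-miR-152-5p (chr17:48037210-48037232, - strand): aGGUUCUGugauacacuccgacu
hsa-miR-26b-5p (chr2:218402657-218402677, + strand): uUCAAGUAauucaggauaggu
hsa-miR-26b-3p (chr2:218402692-218402712, + strand): cCUGUUCUccauuacuuggcu

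The 4 seeds differ from one another. The peak over MIR152 (chr17:48036894-48037483) reached a −log10 q of 6.16 at a fold of 4.41, and the peak at MIR26B (chr2:218402147-218402678) a −log10 q of 4.78 at a fold of 2.20. The other hairpins were MIR6890 in QARS1, MIR6769A in MGRN1, MIR6825 in TPRA1 and MIR6739 in IPO9. The peak at MIR26B ended before miR-26b-3p, and the peak at MIR6769A ended before both of its mature sequences.

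BPP-only peaks were of modest strength within the BPP list. The authors' fold per peak had a median of 3.89 (quartiles 3.24 and 4.68, maximum 11.9), the −log10 q a median of 5.47 (4.38 and 7.01) and the width a median of 402 bp (340 and 527). Shared peaks inside genes had medians of 4.14, 8.20 and 573 bp in the same list. CTR-only peaks inside genes had medians of 4.19, 5.00 and 379 bp in their own list. When the BPP list was ordered by −log10 p in 10 equal parts, BPP-only peaks inside genes made up 0.504% of the strongest part (9 peaks) and 49.6% of the weakest (885 peaks). The rule did not use strength, and what lies behind this gradient was not tested.

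**Figure D1:**
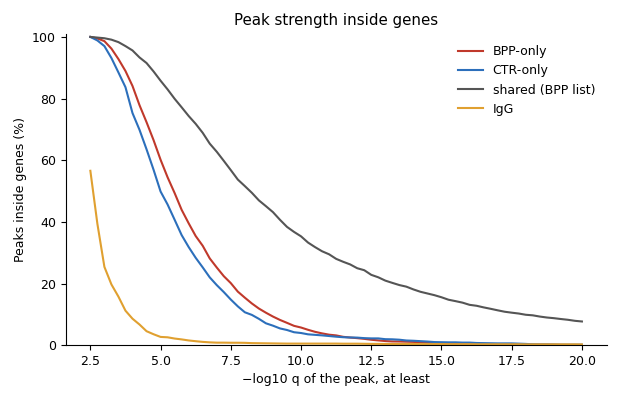
Share of peaks inside genes (vertical axis, percent) whose −log10 q is at least the value on the horizontal axis, for BPP-only, CTR-only, shared (values of the BPP list) and IgG peaks. The BPP-only curve (median 5.47) runs above the CTR-only curve (median 5.00) up to a −log10 q of about 11.5 and below it from 11.75 on (0.633% against 0.979% at 15), and the shared curve (median 8.20) lies above both.

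Of all 8000 BPP peaks inside genes, 4741 had no CTR peak within 1 kb, which is 59.3%, beside 46.2% of all BPP peaks, 25.4% of BPP peaks at gene ends and 47.9% of those outside genes. Of the 5515 CTR peaks inside genes, 42.6% had no BPP peak within 1 kb, beside 25.4% at gene ends. Since these shares are what the rule counts, they describe the set. Just inside the distance limit were peaks in ARHGEF10, SLC61A1 and SMPD4, at 1.003, 1.004 and 1.009 kb from a CTR peak; just outside were peaks in RHEB, CRADD and CUBN at 989, 979 and 978 bp. At the limit to gene ends, peaks in ACTG1, FPGS and SETD1B were kept and peaks at MCRIP1, SLC43A1 and PACSIN3 were left out. The kept ones lay 1.000, 1.002 and 1.007 kb from the nearest end, and the others 997 bp. The typical BPP-only peak was not near the limit: its median distance to the nearest CTR peak was 20.4 kb (quartiles 8.87 and 46.4 kb), and 11.6% lay 1 to 5 kb away.

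The strongest BPP-only peaks without an IgG peak within 1 kb lay in genes of varied function. The peak with the highest fold of all, 11.9, lay in DLGAP2, a postsynaptic scaffold gene (chr8:801935-802299, −log10 q 27.2), 130.0 kb from any CTR peak. In CNOT2, a subunit of the CCR4-NOT deadenylase, a peak reached a −log10 q of 20.3 at a fold of 10.0 (chr12:70264123-70264683). CNOT2 carried H3K27ac at its ends in both libraries, whereas DLGAP2 had no gene-end peak in either.

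Next came ELK3, an ETS-family transcription factor (chr12:96219611-96220268, fold 5.44, −log10 q 20.2), whose nearest CTR peak was 154.7 kb away. PDE4D, a cyclic AMP phosphodiesterase, held a peak 1403.9 kb into its 1553.1 kb span (chr5:59117991-59118471, fold 4.48, −log10 q 19.3). The FRMD6 peak (chr14:51651204-51651707, fold 9.73, −log10 q 19.2) was 337.9 kb from the nearest CTR peak. ELK3, PDE4D and FRMD6 had no H3K27ac peak at their ends in either library.

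Chromatin and RNA regulators were also among the strongest. KDM6A, the X-linked H3K27 demethylase UTX, held a wide peak of 1194 bp (chrX:44897919-44899112, fold 7.50, −log10 q 18.9). ARID1A, a subunit of the BAF remodelling complex that is often mutated in ovarian clear cell carcinoma, held one 1.93 kb from its 5′ end (chr1:26697618-26698261, fold 4.19, −log10 q 17.2), and a CTR peak lay 1.86 kb away. PCIF1, the cap-adjacent adenosine methyltransferase, held one 1.13 kb from a gene end (chr20:45945898-45946886, fold 3.92, −log10 q 16.5). Further strong peaks were in PCDH10, a protocadherin, RFX1, a transcription factor, RAD52, DNM3, a dynamin, HAPSTR1, and BABAM2, a subunit of the BRCA1-A complex, with −log10 q of 16.8 to 19.1. The widest BPP-only peaks were 1981 bp in ANKRD11, a chromatin regulator, 1896 bp in NBPF11 and 1815 bp in VASP, an actin-binding protein. NBPF11 belongs to a multi-copy family, so its reads may come from near-identical copies and its position is uncertain.

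The 4741 peaks fell in 3270 protein-coding genes, 16.4% of the 19974 genes, against 1871 genes (9.37%) for CTR-only peaks. A single peak was held by 2374 genes, and 896 held at least 2. At least 5 were held by 77 genes, against 15 genes with at least 5 CTR-only peaks, and at least 10 by 8 genes, against 1. BPP-only peaks were more numerous, 4741 against 2349, which alone raises such counts. Long genes offer more room: the genes that held BPP-only peaks had a median length of 58.9 kb, against 84.4 kb for genes with CTR-only peaks and 24.2 kb for all protein-coding genes.

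The gene with the most BPP-only peaks was ZFHX3, a homeodomain zinc finger transcription factor, with 17, beside 6 CTR-only, 15 shared and 4 IgG peaks in its 1109.1 kb. They lay mainly in 2 stretches, one from 189.5 to 286.6 kb and one from 842.9 to 1103.5 kb from the 5′ end. Folds in ZFHX3 ranged from 2.12 to 4.02, and its strongest BPP-only peak (−log10 q 9.33) lay 1.14 kb from a CTR peak. GSE1, a component of co-repressor complexes, held 13 BPP-only peaks, beside 5 CTR-only, 8 shared and 2 IgG peaks in 506.7 kb, with 7 of the 13 in its first 108.1 kb.

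NLGN1, a synaptic adhesion protein, held 12 BPP-only peaks, beside 3 CTR-only, 17 shared and 3 IgG peaks. Its strongest (chr3:174287729-174288121, fold 5.98, −log10 q 14.7) lay 892.0 kb into the 898.4 kb gene. DNM3 held 11, beside 1 CTR-only, 8 shared and 1 IgG peak, and the strongest had a −log10 q of 17.6. MBP, myelin basic protein, held 11 within only 154.9 kb, or 7.10 per 100 kb, beside 2 CTR-only, 4 shared and no IgG peaks. Its 11 peaks had folds of 2.87 to 5.54 and −log10 q of 3.34 to 12.7, and they ran over nearly the whole gene, with the outermost 2.52 and 141.1 kb from the 5′ end.

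RBMS3, an RNA-binding protein, held 11 BPP-only peaks and 10 CTR-only peaks, so the lists differed in both directions there, beside 17 shared and 2 IgG peaks. One of its BPP-only peaks overlapped an IgG peak. CUBN, the endocytic receptor cubilin, held 10, beside 3 CTR-only, 9 shared and 1 IgG peak, and KCNT2, a sodium-activated potassium channel, held 10, beside 4 CTR-only, 8 shared and 1 IgG peak. All 8 genes also held shared peaks, and NLGN1 alone among them had a gene-end peak in the H3K27ac lists.

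**Figure D2:**
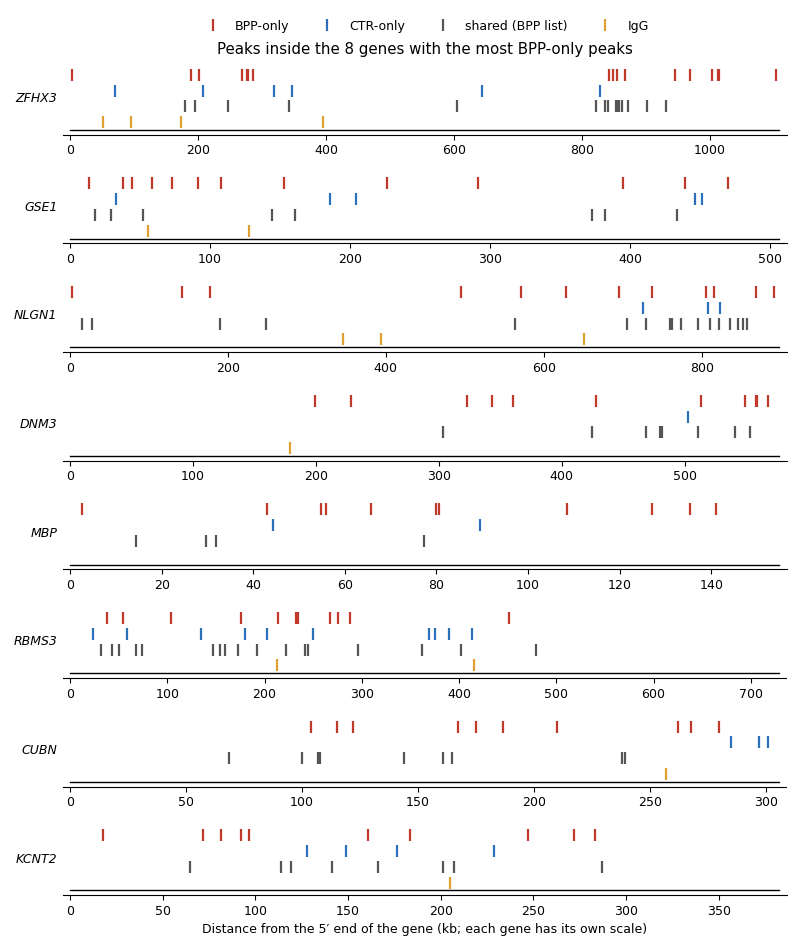
Positions of peaks in the 8 genes that held at least 10 BPP-only peaks, as distance from the 5′ end in kb, with rows from top to bottom for BPP-only, CTR-only, shared and IgG peaks. BPP-only peaks number 17 in ZFHX3 and 10 in KCNT2 and are interspersed with shared peaks in all 8 genes.

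Relative to length, ESRRA, the orphan nuclear receptor ERR alpha, stood highest among genes with at least 3 BPP-only peaks, with 3 in 11.2 kb (26.7 per 100 kb). UBTF, the RNA polymerase I factor UBF, held 3 in 16.3 kb (18.4 per 100 kb). NUP62, a nuclear pore protein, and ZNF500, a zinc finger gene, held 3 each, at 13.2 and 13.1 per 100 kb. GPSM1, a G-protein modulator, held 4 at 12.5 per 100 kb, and KLF16, a Krüppel-like factor, held 3 at 12.4 per 100 kb. ESRRA, UBTF, NUP62 and ZNF500 had no CTR-only, shared or IgG peak inside.

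Runs of at least 4 BPP-only peaks with gaps of at most 10 kb occurred at 9 places. The longest by number were in UBE2L3, a ubiquitin-conjugating enzyme, with 5 peaks in 26.5 kb and no CTR or IgG peak between them (chr22:21572988-21599528), and in CARM1, the arginine methyltransferase that acts as a nuclear receptor coactivator, with 5 in 28.1 kb (chr19:10887872-10916016). The CARM1 run enclosed 2 CTR peaks. The UBE2L3 peaks were weak to moderate, with folds of 2.53 to 3.23 and −log10 q of 2.93 to 6.71, and the CARM1 peaks had folds of 2.68 to 4.29. Among the runs of 4 were those in PDXK, pyridoxal kinase, ZFHX3, FAM53A, DNM3 and GLI2, an effector of Hedgehog signalling. The runs in ZFHX3, FAM53A and GLI2 enclosed no CTR peak.

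Among the 347 genes with at least 3 BPP-only peaks, 39 had no CTR peak inside them or at their ends (11.2%), and 11 of those 39 had an IgG peak. Of the 107 genes with at least 3 CTR-only peaks, 5 had no BPP peak (4.67%), a difference of 6.57 points (0.0760 to 11.2). The CTR list held fewer peaks inside genes, 5515 against 8000, which alone leaves more genes without a CTR peak. Numbers were not made equal here or in the shares over all genes below, so the part of list size was not tested. The genes named next were chosen after their values were seen. TRAF3, an adaptor of tumour necrosis factor receptor signalling, held 7 BPP-only peaks (folds 3.07 to 6.18) and a gene-end peak in BPP. DLG5, a scaffold of cell polarity, held 6 (folds 3.35 to 4.10). MTHFD1L, a mitochondrial enzyme of one-carbon metabolism, and PDPK1, the kinase PDK1 that activates AKT and S6 kinase, held 5 each. None of these 4 genes had an IgG peak inside. PDPK1 has a near-identical pseudogene copy on the same chromosome, so reads may be shared between them and its peaks are uncertain. Over all genes with BPP-only peaks, 1058 of 3270 (32.4%, 30.8 to 34.0) had no CTR peak inside or at their ends, against 531 of 1871 genes with CTR-only peaks (28.4%, 26.4 to 30.5) that had no BPP peak.

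The genes named in the title of the series held no BPP-only peak: BIN2, HDAC1 and RPS6 had none inside, and the only inside peak in any of the lists was 1 IgG peak in HDAC1. At their ends, HDAC1 and RPS6 had peaks in both H3K27ac lists and BIN2 in neither. RPS6 spans only 4.52 kb, so the 1 kb windows at its ends take up much of it. Of the 18 histone deacetylase and sirtuin genes in the gene table, 7 held a BPP-only peak and 11 held none. A CTR-only peak was inside 2 of the 18 and a shared peak inside 5. Over all protein-coding genes, 16.4% held a BPP-only, 9.37% a CTR-only and 10.8% a shared peak. The family was chosen after its values were seen. HDAC4 held 6 (folds 2.83 to 4.89), beside 1 CTR-only, 3 shared and 2 IgG peaks. HDAC7 held 4 (folds 2.31 to 3.12) beside no CTR-only, 1 shared and 1 IgG peak, and one of the 4 overlapped that IgG peak. HDAC9 held 3 (folds 3.94 to 5.71) beside no CTR-only, 2 shared and no IgG peaks. HDAC3, HDAC8, HDAC11 and SIRT3 held 1 each, with folds of 4.62, 5.23, 3.84 and 4.60. HDAC5, a class IIa enzyme like HDAC4, HDAC7 and HDAC9, held none, beside 1 CTR-only and 2 shared peaks.

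Lists of genes by function differed in how many BPP-only peaks they held per length. Over all protein-coding genes there were 3.79 BPP-only, 1.87 CTR-only, 2.59 shared and 2.56 IgG peaks per Mb of summed gene length, and 16.4% of genes held a BPP-only peak. Inside genes there were 2.02 BPP-only peaks for each CTR-only peak, so a higher BPP-only count is not by itself particular to a list. Histone deacetylase and co-repressor genes had the highest density, 12.4 per Mb, against 3.25 for CTR-only, 9.75 for shared and 2.44 for IgG peaks. Shared peaks, too, were denser in this list than over all genes. In the list, 26 of 51 genes held 61 BPP-only peaks, against 16 CTR-only peaks. Among their strongest were peaks in RCOR2, a CoREST subunit (−log10 q 12.8), CTBP2, a co-repressor (10.8; 9 peaks), and MTA3, a NuRD subunit (9.71). Histone and DNA methylation and remodelling genes followed with 9.42 per Mb, against 4.51 for CTR-only peaks. There, 31 of 58 genes held 73 BPP-only peaks, against 35 CTR-only peaks, a balance near that of all genes. KDM6A and ARID1A led that list, before KMT2C, an H3K4 methyltransferase (fold 6.27, 291.3 kb from any CTR peak), and CHD7, a chromatin remodeller (fold 7.22). CHD7 held only 1 BPP-only peak, 32.2 kb from a CTR peak, beside 3 CTR-only and 2 shared peaks. Acetyltransferase and bromodomain genes held BPP-only peaks in 13 of 42, at 5.77 per Mb, below the 7.85 per Mb of shared peaks there, among them NCOA2, a nuclear receptor coactivator (fold 5.91), JADE2, a subunit of the HBO1 complex (4 peaks), and BPTF, a subunit of NURF.

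Stem cell and oncogenic transcription factor genes held 67 BPP-only peaks in 20 of 58 genes, against 15 CTR-only peaks. That was 6.44 against 1.44 per Mb, beside 3.79 and 1.87 over all genes. ZFHX3 alone gave 17 of the 67, and NFIB, HMGA2, an architectural factor, and NFIC held 6, 4 and 6. Genes of WNT, NOTCH, TGF-beta, BMP and Hippo signalling held 44 in 23 of 63 genes, against 25 CTR-only and 47 shared peaks (6.47, 3.68 and 6.91 per Mb). TEAD3, WWTR1 (the coactivator TAZ) and VGLL4, all of the Hippo pathway, and LRP5, a WNT co-receptor, led them, and LRP5 held 6 at folds up to 3.75 for its strongest. AP-1 and nuclear receptor genes held them in 17 of 55 (8 with only the 10000 strongest peaks of each list). The density there was 3.66 per Mb, close to the 3.79 of all genes. Leading this list were NCOA2, RXRA, the retinoid X receptor alpha (−log10 q 13.8), BACH1, a haem-responsive repressor, and FOSB, an AP-1 subunit. The strongest BPP-only peaks of NCOA2, RXRA and BACH1 lay only 1.33, 1.42 and 1.55 kb from a CTR peak. RXRA held 2 BPP-only peaks beside 4 CTR-only and 6 shared peaks.

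The pathway of mTOR, PI3K and S6 kinase, which phosphorylates RPS6, held BPP-only peaks in 18 of 51 genes, or 5.25 per Mb, beside 3.79 over all genes. There were 35 BPP-only peaks against 16 CTR-only peaks, a balance near the 2.02 to 1 inside all genes. STK11, the kinase LKB1, held a peak 1.86 kb from its 5′ end (−log10 q 11.5), FNIP2, a folliculin partner, one at a fold of 6.97, PDPK1 held 5, and RPTOR, the mTORC1 subunit raptor, held 6 beside 2 CTR-only, 1 shared and 1 IgG peak. The 5 PDPK1 peaks lay 39.9 to 61.4 kb from the nearest CTR peak. Receptor tyrosine kinase, RAS and MAPK genes held them in 18 of 61, at 3.64 per Mb, close to the 3.79 of all genes. DDR2, a collagen receptor kinase (4 peaks), SHC1, an adaptor, and SPRED2, a RAS pathway inhibitor, were among those with the strongest peaks in that list.

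BIN2 belongs to the BAR-domain proteins, which bend membranes, and 22 of 53 genes of that family held 38 BPP-only peaks, against 18 CTR-only peaks. That was 5.51 and 2.61 per Mb, beside 3.79 and 1.87 over all genes, so the balance of the 2 sets was near that of all genes. ACAP3, an ARF regulator (−log10 q 15.7), SH3GL1, an endophilin, BIN1, amphiphysin II (3 peaks), and DNMBP, the scaffold TUBA, held the strongest. Autophagy, lysosome and vesicle traffic genes held them in 24 of 56 (5.41 per Mb), led by DNM3, RAB7A, a late endosome GTPase (−log10 q 13.5), and the lipid transfer proteins VPS13D and VPS13A.

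Genes of DNA repair and the p53 pathway held BPP-only peaks in 19 of 55 (6.36 per Mb), or 8 of 55 with only the 10000 strongest peaks of each list, with RAD52 at 3, the Fanconi anaemia genes FANCC and FANCA at 4 and 2, and ERCC2, a helicase of TFIIH, at 1. Cell cycle and DNA replication genes held them in 12 of 55 (5.89 per Mb). That count was 6 when both lists were limited to a −log10 q of at least 5, and 2 with the 10000 strongest peaks of each list. Among the 12 genes were MAD1L1, a spindle checkpoint gene, with 9 peaks, CCND3, cyclin D3, with 3, ANLN, anillin, with 2, and ORC1, an origin recognition subunit, with 1. The strongest of these, in ORC1, reached a −log10 q of only 6.07, and IgG peaks were denser there, at 4.35 per Mb, than over all genes. Phosphodiesterase, cyclase and protein kinase C genes held them in 18 of 53 at 3.10 per Mb, below the 3.79 of all genes. They were led by PDE4D with 9, PRKACB, a catalytic subunit of protein kinase A, PRKCH and ITPR3.

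Several lists held few. Very long genes of common fragile sites had 0.529 BPP-only peaks per Mb, against 0.441 CTR-only and 2.35 IgG peaks. Ion channel and synaptic genes had 0.653, against 0.317 and 2.57, and cell adhesion and integrin genes 0.914, against 0.647 and 2.74. In these 3 lists IgG peaks were denser than BPP-only peaks, as they were in the 3 lists of cell type markers below. NLGN1 and DLGAP2, described above, belong to the ion channel and synaptic list, and in the same 3 lists LPP, RAD51B, PTPRN2, DLGAP1, ROBO1, PARD3, PTK2, CTNNA1 and TLN1 held between 1 and 6.

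Mesenchymal, matrix and EMT genes held 19 BPP-only peaks in 7 of 42 genes (16.7%, near the 16.4% of all genes). That was 4.23 per Mb, beside 3.79 over all genes. The list also held 7 CTR-only peaks, and 25 shared peaks in 8 genes. COL5A2, a fibrillar collagen gene, held 9 of the 19 BPP-only peaks, beside 3 CTR-only and 12 shared peaks. LAMA5, a laminin chain, ZEB1, a transcription factor of epithelial to mesenchymal transition, and COL3A1 held 3, 1 and 1. Ovarian carcinoma and epithelial marker genes held them in 2 of 33, ARID1A and KRT8, a simple epithelial keratin. At gene ends, 6 of these 33 had a BPP peak and 4 a CTR peak; ARID1A, KRT8, KRT18 and MUC1 had both, and defining markers such as PAX8, MUC16 and EPCAM were not among those with both. Immune cell markers held BPP-only peaks in 3 of 35, LCK, CD8B and CD79A, with −log10 q of 4.31 to 6.87, and endothelial and hepatocyte markers in 1 of 21, ENG. Peaks do not measure expression, and the identity of the cells was not tested by them.

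**Figure D3:**
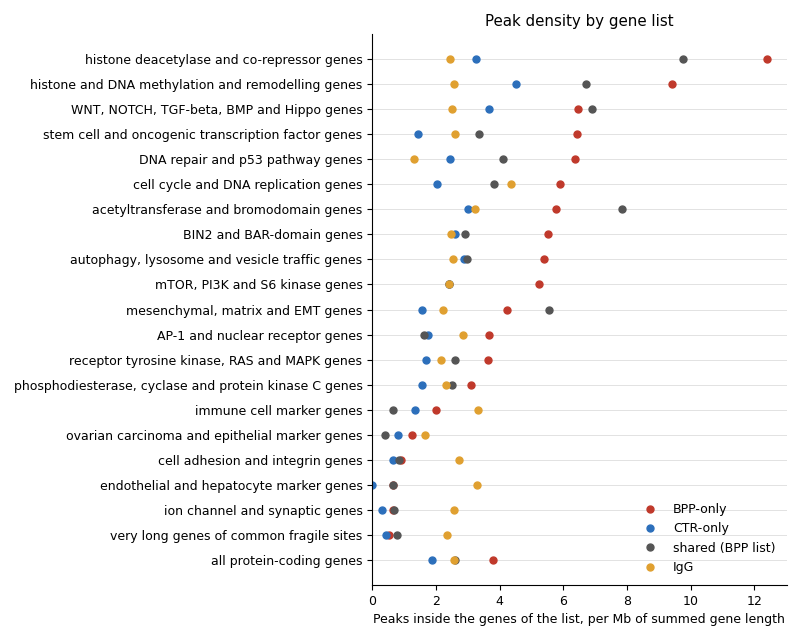
Peaks per Mb of summed gene length (horizontal axis) for 20 gene lists and, in the bottom row, all protein-coding genes; points mark BPP-only, CTR-only, shared and IgG peaks. Histone deacetylase and co-repressor genes reach 12.4 BPP-only and 9.75 shared peaks per Mb, against 3.79 and 2.59 over all genes, while IgG peaks stay between 1.31 and 4.35.

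Strand was known for the host gene of 3915 BPP-only peaks. These peaks were spread along genes more evenly than shared peaks. Their midpoint lay on the 5′ side of the gene's middle in 53.9% (52.4 to 55.5), against 50.7% (48.5 to 52.9) of CTR-only, 60.1% (58.2 to 61.9) of shared and 49.8% (47.9 to 51.8) of IgG peaks. The difference was 3.26 points from CTR-only peaks (0.551 to 5.96) and -6.13 points from shared peaks (-8.53 to -3.72). With only the 10000 strongest peaks of each list, the difference from CTR-only peaks was 0.579 points (-3.22 to 4.39). In the first 10% of the gene lay 9.25% of BPP-only, 8.41% of CTR-only, 13.1% of shared and 8.40% of IgG peaks. There the difference from CTR-only peaks was 0.832 points (-0.740 to 2.32).

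**Figure D4:**
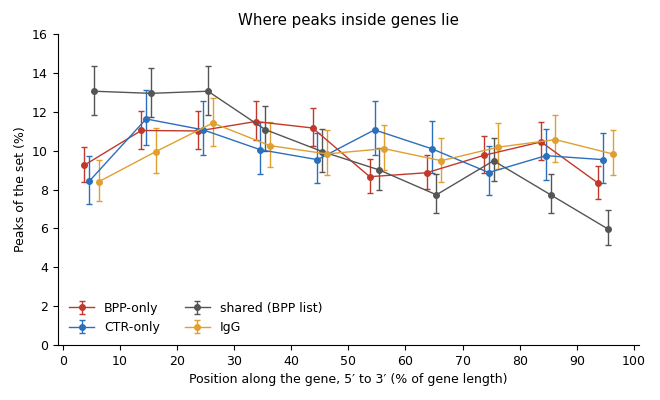
Share of peaks (vertical axis, percent, with 95% Wilson intervals) in each 10% of the host gene from the 5′ to the 3′ end, for BPP-only, CTR-only, shared and IgG peaks. BPP-only peaks range from 8.33% to 11.5% per step, while shared peaks range from 13.1% at the 5′ end to 5.98% at the 3′ end.

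In absolute distance, 11.1% (10.1 to 12.1) of BPP-only peaks lay within 5 kb of the 5′ end of their gene, against 7.39% (6.32 to 8.64) of CTR-only peaks, a difference of 3.67 points (2.10 to 5.15). Shared peaks were at 13.3% and IgG peaks at 4.95%. The sets were ordered differently at the 3′ end, where 10.9% (9.97 to 11.9) of BPP-only peaks lay within 5 kb, against 8.92% of CTR-only, 7.51% of shared and 6.11% of IgG peaks. Gene length also differed between the sets. The host gene had a median length of 81.0 kb for BPP-only peaks, against 105.0 kb for CTR-only, 89.8 kb for shared and 161.4 kb for IgG peaks, and its part in the distances was not tested. Host genes under 30 kb held 19.8% of BPP-only peaks, against 14.3% of CTR-only, 18.3% of shared and 10.5% of IgG peaks. Genes over 300 kb held 11.3% of BPP-only, 14.3% of shared and 33.2% of IgG peaks, and the difference from CTR-only peaks was -2.66 points (-4.36 to -1.02).

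BPP-only peaks lay close to one another more often than CTR-only peaks did. Another BPP-only peak was within 5 kb of 7.53% (6.81 to 8.32) of them, while another CTR-only peak was within 5 kb of 2.98% (2.37 to 3.75) of CTR-only peaks. Numbers of peaks differ between the sets, which alone raises such a share. With only the 2349 strongest BPP-only peaks by −log10 p, as many as there were CTR-only peaks, the share was 4.21% (3.47 to 5.10) and the difference 1.23 points (0.168 to 2.32). A close peak is counted together with its neighbour, so peaks are not independent here and these intervals may be too narrow. Within 10 kb the shares were 12.0% for this equal number and 7.79% for CTR-only peaks. Shared peaks stood at 15.9% within 5 kb and IgG peaks at 0.464%. A shared peak of the BPP list lay within 5 kb of 7.04% of BPP-only peaks, against 4.04% for CTR-only peaks and shared peaks of the CTR list.

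IgG peaks were seldom nearby. One lay within 1 kb of 66 BPP-only peaks (1.39%, 1.10 to 1.77), against 41 CTR-only peaks (1.75%, 1.29 to 2.36) and 73 shared peaks (2.24%, 1.79 to 2.81). The difference was -0.848 points from shared peaks (-1.49 to -0.258) and -0.353 from CTR-only peaks (-1.03 to 0.237).

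Genes with BPP-only peaks carried H3K27ac at their ends more often than the average gene, in both libraries. A BPP gene-end peak was present in 37.9% (36.2 to 39.6) of the 3270 genes and a CTR one in 39.5% (37.8 to 41.2), against 30.6% and 31.2% of all protein-coding genes. For genes with CTR-only peaks these shares were 34.5% and 36.2%. Genes with shared peaks inside had 37.1% and 39.5%, close to the genes with BPP-only peaks. The differences from them were 0.742 points (-1.89 to 3.36) for BPP and -0.0676 (-2.73 to 2.58) for CTR gene-end peaks. An IgG gene-end peak was present in 2.66% of the genes with BPP-only peaks, against 2.13% of all genes. Among the 3270 genes, 842 also held a CTR-only peak, which is 25.7% of them and 45.0% of the genes with CTR-only peaks, and 1014 (31.0%) also held a shared peak. Long noncoding RNA genes overlapped 6.24% of BPP-only, 6.94% of CTR-only, 8.99% of shared and 6.13% of IgG peaks. Only 2.53% of BPP-only peaks lay over more than 1 protein-coding gene.

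By chromosome, BPP-only peaks were densest on the gene-rich chromosomes. Per Mb inside genes there were 12.1 on chromosome 19, 9.89 on 22, 8.13 on 17 and 7.81 on 16, against 0.981 on 13, 1.32 on X and 1.90 on 18. CTR-only peaks had the same 4 chromosomes on top, with 4.46, 3.77, 3.55 and 3.31 per Mb. IgG peaks ranged only from 1.56 on chromosome 13 to 3.52 on 17. Over all chromosomes there were 3.89 BPP-only, 1.93 CTR-only and 2.65 IgG peaks per Mb.

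**Figure D5:**
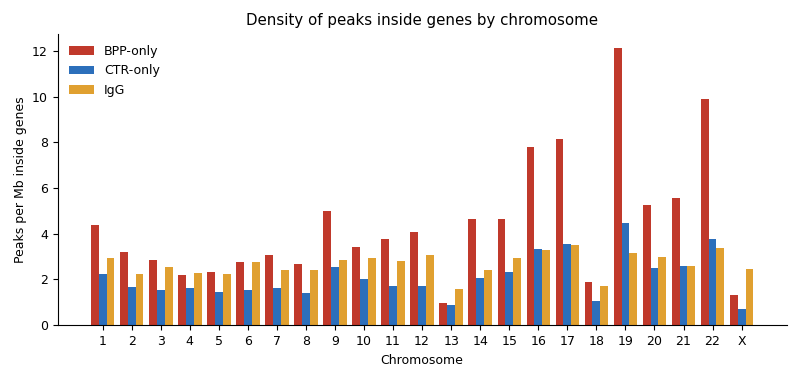
Peaks per Mb inside protein-coding genes (vertical axis) on each chromosome for BPP-only, CTR-only and IgG peaks. BPP-only density ranges from 0.981 on chromosome 13 to 12.1 on chromosome 19, and IgG density from 1.56 to 3.52.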

How the data were processed

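Each library has its own deposited peak list, with no pooling. Per the submitters' processing notes, the build was GRCh38.p13 (hg38) and the tools were deepTools 3.3.0, Bowtie2 2.4.1 and fastp. How peaks were called, with which program and whether against IgG, is not given in the sources used here. In the deposited lists the score of a peak is its −log10 p multiplied by 10 and truncated. The fold, a ratio whose denominator no source describes, and the −log10 of the p-value and q-value are as the authors deposited them. These values were used to describe, rank and filter peaks within a list. Lists held 17869 BPP, 14873 CTR and 7715 IgG peaks, of which 28, 37 and 14 lay outside chromosomes 1 to 22 and X and were left out. Reads per library, and so depth, are unknown.

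Genes came from a RefSeq table of GRCh38.p14, with 19974 protein-coding genes. Strand came from a table of RefSeq start windows, for 15812 of them and none on chromosome 8. Patch releases share chromosome coordinates, and positions are counted from 1. Peaks overlapped from 1 bp. A peak over several genes was assigned to the longest for gene length and position, and counted in each for counts per gene. Peaks per Mb by chromosome use the span of genes less the windows at gene ends, and those by list use the summed span of genes. Shares carry 95% Wilson intervals and differences Newcombe intervals, which treat peaks as independent. No genome was used, so exons, introns and the sequence under most peaks were not analysed here.

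The regions and the 21 gene lists (1059 genes, of which FAM190A matched no symbol) were chosen with earlier results of these data known. Named genes follow a rule: the 15 peaks of highest −log10 q without IgG, the genes with most peaks and most per length, up to 4 genes per list, the 3 peaks on each side of both limits, the 3 widest, BIN2, HDAC1 and RPS6, and peaks over start windows. Not all windows that this rule takes are printed. Some genes that the rule takes, and 1 of the lists, are not reported here. The genes with at least 3 peaks and no CTR peak, the deacetylase family and the windows of HDAC9 and the microRNAs were added after their values were seen. Scripts ran in Python 3.11.15 (pandas 2.3.3, numpy 2.4.6, matplotlib 3.10.9, scipy 1.17.1), and overlaps were checked against bedtools 2.31.1 on simulated lists. The alternatives were 3 other distances to a counterpart, 2 other gene-end windows, 3 filters on peak strength and leaving out peaks near IgG peaks.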

Additional observations from a re-analysis of the deposited data

How the results depend on the processing

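No paired analysis was possible because each group has 1 library, and no replicate could be left out. Most values were single shares, medians and counts, which have no sign. The 5 signed differences between BPP-only and CTR-only peaks kept their direction under the 9 alternatives: the share inside genes, the share over a start window, the share near another peak of the same set at equal numbers, and both measures of closeness to the 5′ end. Differences from shared and IgG peaks, and those of gene-end peaks, were not computed again. The start-window difference was -2.98 points with −log10 q of at least 5 in both lists and -3.04 with the 10000 strongest peaks. The difference in midpoints on the 5′ side had an interval across 0 under both these filters (1.48 and 0.579 points) and with gene-end windows of 500 bp (2.57), and so did the spacing difference with the filter on BPP only (0.985). BPP-only peaks inside genes made up 28.2% of BPP peaks when only overlapping CTR peaks counted as counterparts, 25.5% with 2 kb and 23.5% with 5 kb, 28.2% with gene-end windows of 500 bp and 24.4% when these windows were 2 kb. Keeping peaks with −log10 q of at least 5 in both lists, the share was 24.6%, the share within 5 kb of another BPP-only peak 6.76%, and the share over a start window 1.77%. With the 10000 strongest peaks of each list there were 1966 BPP-only peaks (19.7% of 10000), with 1.78% near an IgG peak, 4.98% near one another and 2.68% over a start window. With −log10 q of at least 5 in BPP against the whole CTR list there were 2852 (20.7%), with 4.87% near one another and 1.74% over a start window. An equal number of peaks gave 4.21% near one another. The share of peaks without a counterpart that lay inside genes was 13.9 points higher in BPP than in CTR, and 12.0 with windows of 2 kb, 18.2 and 17.7 with the same filter on both lists (−log10 q, then the top 10000) and 11.3 with the filter on BPP only. Among all peaks, 8000 of 17841 BPP peaks and 5515 of 14836 CTR peaks lay inside genes. The whole BPP list thus also lay inside genes more often, and its part in the difference was not tested. Of 189 counts of genes per list, 164 stayed within 1.5 times and 25 were lower, 15 of these with the top 10000, which hold fewer peaks. The deacetylase and co-repressor list ranged from 17 to 28 genes, cell cycle and DNA replication genes from 2 to 14, DNA repair and p53 pathway genes from 8 to 21, and AP-1 and nuclear receptor genes from 8 to 18. Leaving out peaks near IgG peaks leaves no share near IgG to report. The start-window and equal-number values and the differences other than the share inside genes were chosen after seeing the data. Depth is unknown, so being called in a single list does not show that the mark was absent elsewhere.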
